A study of Mus musculus with 6 samples.

Results

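The mechanically gated Piezo channels and the acid-sensing ion channels (ASICs) were examined in cultured mouse dorsal root ganglion (DRG) neurons given vehicle or HC-HA/PTX3. The 6 genes Piezo1, Piezo2, Asic1, Asic2, Asic3 and Asic4 were taken by symbol from the 35976 gene symbols in each count table, and all 6 had a row. HC-HA/PTX3 is a complex of hyaluronan, heavy chains of inter-alpha-trypsin inhibitor and pentraxin 3 that was purified from human amniotic membrane, and the study asked whether a long exposure alters gene expression in DRG neurons.

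Lumbar DRGs were collected from adult wildtype C57BL/6 mice of both sexes, dissociated and plated on poly-d-lysine and laminin in serum-containing medium with GDNF. Cultures were 24 h old when 15 µg/mL HC-HA/PTX3 was added to 3 of them and vehicle to the other 3, and they were harvested 24 h later. Ribosomal RNA-depleted total RNA was sequenced in bulk. The total was 42516054, 42617496 and 54117547 counts in vehicle cultures 1, 2 and 3, and 37998071, 37434266 and 38420247 counts in HC-HA/PTX3 cultures 1, 2 and 3. The labels do not say that the cultures came from separate animals or preparations, so p-values measure the spread between these 6 samples.

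Piezo proteins assemble as trimers that open when the membrane is stretched or indented. Piezo2 is the main transducer of touch and body position in DRG neurons, whereas Piezo1 is best known from endothelial cells, red blood cells and other non-neuronal cells. ASICs are trimeric sodium channels of the degenerin family that open when the extracellular space turns acidic, with Asic3 prominent in sensory neurons that innervate muscle and skin, Asic1 and Asic2 shared between the brain and sensory ganglia, and Asic4 known as a subunit that gives no proton current on its own.

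Piezo2 was by far the most abundant of these transcripts, and Asic4 was close to absent. Levels are given as CPM (counts scaled to library size after TMM normalization), a scaling that sets the bulk of genes equal between libraries. Piezo2 (chr18:63010213-63387183, minus strand, mm10) was at 704, 543 and 493 CPM in vehicle cultures 1, 2 and 3 and at 693, 569 and 629 CPM in HC-HA/PTX3 cultures 1, 2 and 3. Its level was highest in replicate 1 of both groups, and the groups overlapped. Piezo1 (chr8:122481698-122551329, minus strand) was at 75.9, 109.8 and 134 CPM in the vehicle cultures and at 67.9, 107 and 97.7 CPM in the HC-HA/PTX3 cultures. Piezo1 was lowest in replicate 1 of both groups, opposite to Piezo2, and the groups overlapped.

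Among the ASICs, Asic2 (chr11:80880169-81968457, minus strand) was at 93.8, 72.7 and 96.5 CPM in the vehicle cultures and at 77.9, 72.8 and 94.0 CPM in the HC-HA/PTX3 cultures. Asic3 (chr5:24413392-24417835, plus strand) was at 44.3, 24.3 and 36.6 CPM with vehicle and at 41.4, 19.0 and 39.2 CPM with HC-HA/PTX3. Asic1 (chr15:99670368-99701130, plus strand) was at 32.5, 21.2 and 26.4 CPM with vehicle and at 27.2, 19.7 and 23.3 CPM with HC-HA/PTX3. In all 3 genes replicate 2 held the lowest value of each group, and the vehicle and treated ranges overlapped. Asic4 (chr1:75450436-75474343, plus strand) had 0 counts in 5 cultures and 4 counts in HC-HA/PTX3 culture 3, which is 0.102 CPM there. A count of 0 allows up to 3 counts, or 0.0536 to 0.0808 CPM across the 6 libraries, and this limit covers counting error alone. Asic4 was therefore not detectable at this depth in 5 of 6 cultures, it was left out of the test by the filter on low counts, and no change is given for it.

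**Figure D1:**
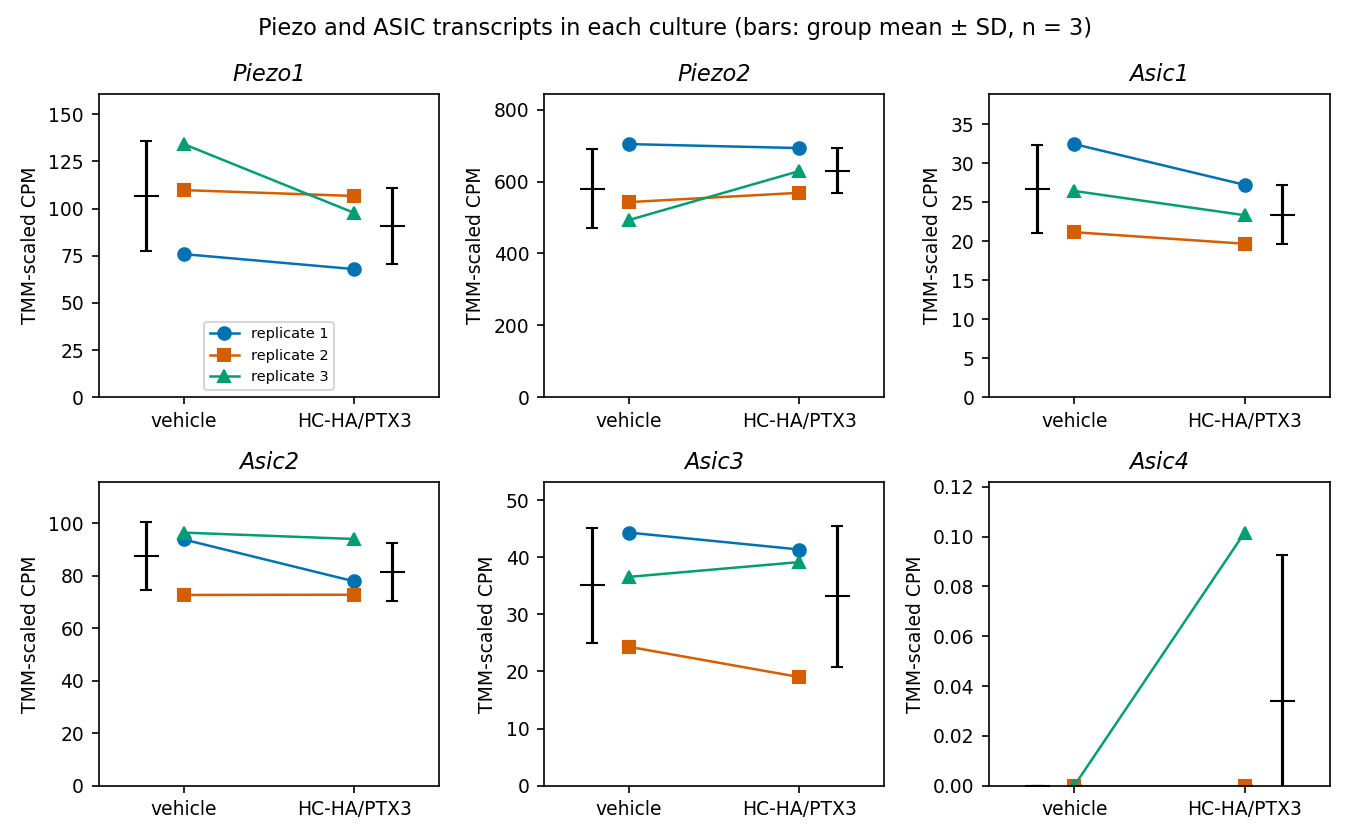
TMM-scaled CPM (vertical axis, from 0) of the 6 genes in vehicle and HC-HA/PTX3 cultures (horizontal axis). Lines join cultures with the same replicate number, black bars give the group mean ± SD of 3 cultures, and each gene's groups overlap, as for Piezo2 with 493 to 704 CPM in vehicle and 569 to 693 CPM in treated cultures.

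To compare levels between genes, CPM was divided by the exon length of the longest protein-coding transcript in kilobases. On this scale Piezo2 stood at 54.1 ± 10.3 CPM per kilobase with vehicle and 58.8 ± 5.81 with HC-HA/PTX3 (SD, n = 3 each), and its lowest culture, at 46.0, was above the highest culture of any other member. Asic2 was next at 25.5 ± 3.79 CPM per kilobase with vehicle, followed by Asic3 at 18.9 ± 5.44, Piezo1 at 13.0 ± 3.56 and Asic1 at 6.49 ± 1.38 (SD, n = 3 each). The ranges of Asic2 and Asic3 over the 6 cultures overlapped, although Asic2 was above Asic3 in each of the 6 cultures. The ranges of Asic3 and Piezo1 overlapped as well. Piezo1 and Asic1 were separated, with 8.26 as the lowest value of Piezo1 and 7.89 as the highest of Asic1. With coding length in place of exon length, Asic1 (14.9 CPM per kilobase over the 6 cultures) came before Piezo1 (12.9), and their ranges then overlapped, while those of Asic2 (lowest 43.0) and Asic3 (highest 27.9) no longer did.

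**Figure D2:**
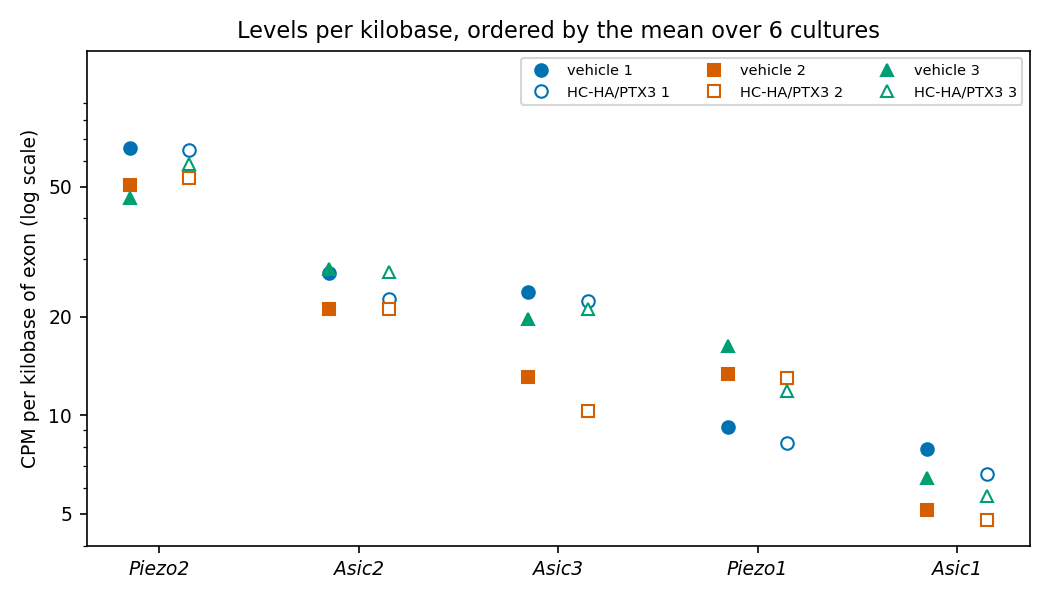
CPM per kilobase of exon (vertical axis, log scale) for the 5 detected genes, ordered by their mean over 6 cultures; filled symbols are vehicle and open symbols HC-HA/PTX3 cultures. Piezo2 lies between 46.0 and 65.7 in every culture, above all other values shown, while Asic2, Asic3 and Piezo1 form an overlapping series.

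Within the ASIC transcripts the shares per kilobase were similar between groups. Asic2 made up 50.5% ± 3.88 of the summed ASIC level with vehicle and 51.0% ± 7.28 with HC-HA/PTX3, Asic3 36.7% ± 3.59 and 36.9% ± 7.68, and Asic1 12.7% ± 0.790 and 12.2% ± 1.49 (SD, n = 3 each). For each of these 3 genes the group means lay closer together than 1 SD. The log2 ratio of Asic3 to Asic1 per kilobase was 1.60, 1.35 and 1.62 in the vehicle cultures and 1.75, 1.10 and 1.90 in the HC-HA/PTX3 cultures, so the treated values lay on both sides of the vehicle ones. The difference in means was 0.06 (two-sided exact permutation p = 0.8), and without replicate 3 it was −0.05. The log2 ratio of Piezo2 to Piezo1 was 2.83, 1.92 and 1.49 with vehicle and 2.97, 2.03 and 2.30 with HC-HA/PTX3. It was higher with HC-HA/PTX3 in each of the 3 same-numbered pairs, by 0.14, 0.11 and 0.81, and the groups overlapped. The difference in means was 0.35 (two-sided exact permutation p = 0.4, where 0.1 is the smallest p that 3 against 3 can give) and fell to 0.12 without replicate 3. For both ratios the permutation exchanged cultures across replicate numbers, so its p does not use the pairs.

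The comparison of HC-HA/PTX3 with vehicle called none of the 5 tested members. It was made across 18277 genes with edgeR's quasi-likelihood test and the replicate number as a block, and a gene was called at an adjusted p under 0.05 (Benjamini-Hochberg) with an absolute log2 fold change over 0.5. Of all tested genes, 1591 (8.70%) were called, 3.32% higher and 5.38% lower, and 19.2% had an adjusted p under 0.05 whatever the fold change. Of the 5 members 0 were called and 0 had an adjusted p under 0.05 in edgeR, and 1 had an unadjusted p under 0.05. DESeq2 and limma-voom also called 0 members, with 1 and 2 at an unadjusted p under 0.05. The groups of 3 overlapped for all 5 members, against 18.0% of tested genes whose groups did not overlap.

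Piezo1 was lower with HC-HA/PTX3 in each pair, by log2 values of −0.16, −0.04 and −0.46 in pairs 1, 2 and 3. The fitted log2 fold change was −0.22 ± 0.08 (SE; 95% interval −0.40 to −0.04), and the adjusted p was 0.0854 (edgeR quasi-likelihood, Benjamini-Hochberg). Without replicate 3 it was −0.08. In the annotation, exons of Piezo1 share 2441 bases with Ctu2, an antisense gene for a tRNA thiolation enzyme that was at 8.36 to 11.0 CPM, and since no strand setting is stated for the counting, reads from the 2 genes cannot be told apart there. Piezo2 gave −0.02, 0.07 and 0.35 in the 3 pairs and a fitted log2 fold change of 0.13 ± 0.08 (SE; 95% interval −0.04 to 0.31), with an adjusted p of 0.271 in the same edgeR test. The value for Piezo2 was 0.04 without replicate 3 and 0.21 without replicate 1, and it was higher in 2 of 3 pairs.

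Asic1 was lower in each of the 3 pairs, by log2 values of −0.25, −0.11 and −0.18, with a fitted log2 fold change of −0.18 ± 0.08 (SE; 95% interval −0.36 to 0.00) and an adjusted p of 0.158 in the edgeR test. Piezo1 and Asic1 were thus the 2 members of 5 with a single direction in all 3 pairs, a pattern that 53.8% of the tested genes showed in either direction. Asic2 stood at −0.10 ± 0.07 and Asic3 at −0.11 ± 0.09 (log2 fold change with SE), with adjusted p of 0.354 and 0.439 in the edgeR test. Their pairs did not share a direction, with −0.27, 0.00 and −0.04 for Asic2 and −0.10, −0.36 and 0.10 for Asic3. Asic2 ran from −0.16 without replicate 2 to −0.02 without replicate 1. Asic3 ran from −0.21 without replicate 3 to 0.00 without replicate 2. All 5 intervals lay inside the range of −0.5 to 0.5, the fold change threshold. In this TMM-scaled fit with the replicate block, the 95% intervals therefore held no log2 change larger than 0.40 in size for any tested member. No intervals are given for the other scalings or for the fit without the block, so the bound does not extend to them.

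**Figure D3:**
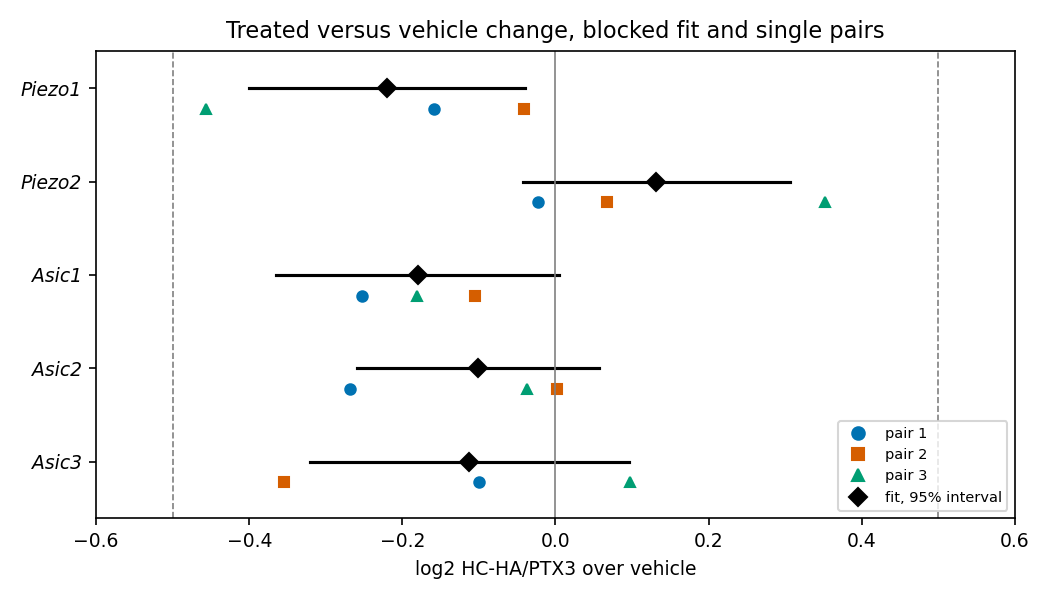
Log2 HC-HA/PTX3 over vehicle (horizontal axis) for the 5 tested genes: black diamonds with lines are the blocked edgeR estimates with 95% intervals and coloured symbols the 3 same-numbered pairs. Dashed lines mark the threshold of 0.5 in each direction; the pair values of Piezo1 and Asic1 all lie below 0, and no interval reaches a dashed line.

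Without the block, the members' adjusted p rose to between 0.777 and 0.961 (edgeR, Benjamini-Hochberg) while their log2 fold changes stayed between −0.23 and 0.12. Without it, 0 of the 18277 genes were called (0%), 2089 had an unadjusted p under 0.05, and the smallest adjusted p was 0.0581. The calls in these data therefore rest on comparing cultures that share a replicate number.

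The members also differed between replicate numbers. Tested together, the coefficients for replicate numbers differed from 0 at an adjusted p under 0.05 for 5 of the 5 tested members in edgeR, against 33.8% of all tested genes. The members lay at percentiles 60.4 to 99.2 of all tested genes by mean CPM. By the SE of the treatment change they lay at percentiles 18.8 to 40.1. The share among genes of like level was not computed. Asic3 was lower in replicate 2 than in replicate 1 by a log2 difference of −0.99, with −0.18 for replicate 3 over 1 (adjusted p = 0.000295, edgeR, Benjamini-Hochberg). Asic1 had −0.54 and −0.26 for the same contrasts (adjusted p = 0.00661). Piezo1 ran the other way, with 0.59 and 0.68 (adjusted p = 0.00104). Asic3 and Asic1 were thus lowest in replicate 2 whether vehicle or HC-HA/PTX3 had been given, and Piezo1 was lowest in replicate 1.

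Piezo2 was lower in replicates 2 and 3 than in replicate 1, with log2 differences of −0.33 and −0.32 (adjusted p = 0.0287, edgeR, Benjamini-Hochberg), and Asic2 had −0.24 for replicate 2 and 0.15 for replicate 3 (adjusted p = 0.0171). These calls changed when a replicate number was left out, which leaves 4 cultures. Without replicate 1, 2 of 5 members differed (Asic2 and Asic3), without replicate 2 only Piezo1 did, and without replicate 3 all but Asic2. Piezo2 lost the call under upper-quartile scaling (adjusted p = 0.0602) and raw library sizes (adjusted p = 0.0622), and Asic2 when pan-neuronal counts served as the library size (adjusted p = 0.172, all edgeR).

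The sequence upstream of annotated starts is shown for Asic3 and Asic1, the members furthest below replicate 1 in replicate 2, and for Piezo1, which ran the other way. The low replicate 2 was not particular to Asic3 and Asic1, since Asic2 was also lowest there and Piezo2 was about equally low in replicates 2 and 3, and the windows of these genes are not shown. Each is 190 bases, from 250 to 61 bases before a RefSeq start (GRCm38.p6), given 5′ to 3′ on the gene's strand: chr5:24413201-24413390, plus strand, for Asic3; chr15:99691974-99692163, plus strand, for Asic1; chr8:122551390-122551579, minus strand, for Piezo1. None holds an annotated exonic base, and the Asic1 window lies 21606 bases inside the annotated gene, before an internal start. Capitals mark matches on either strand to the GC box GGGCGG, to the E-box with letters CANNTG, or to the Runx core written as TGTGGT, motifs chosen after the sequences had been seen.
Asic3: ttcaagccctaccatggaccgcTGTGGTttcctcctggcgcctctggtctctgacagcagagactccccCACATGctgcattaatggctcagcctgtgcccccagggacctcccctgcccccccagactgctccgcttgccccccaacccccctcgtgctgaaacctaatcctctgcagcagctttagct
Asic1: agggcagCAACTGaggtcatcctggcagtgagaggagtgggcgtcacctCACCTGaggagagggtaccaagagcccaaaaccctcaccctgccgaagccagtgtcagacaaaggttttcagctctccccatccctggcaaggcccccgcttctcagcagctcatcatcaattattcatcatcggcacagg
Piezo1: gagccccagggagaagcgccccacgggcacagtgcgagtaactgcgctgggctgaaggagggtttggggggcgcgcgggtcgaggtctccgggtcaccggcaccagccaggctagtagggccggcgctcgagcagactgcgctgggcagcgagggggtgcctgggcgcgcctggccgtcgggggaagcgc
The Asic3 window held 1 E-box and 1 Runx core match, the Asic1 window 2 E-box matches, and the Piezo1 window none of the 3 motifs. Of 32851 promoter windows of the same length, 57.3% held an E-box, 22.8% a GC box and 11.0% a Runx core. The windows were 62.1% (Asic3), 57.4% (Asic1) and 74.2% (Piezo1) G and C. These matches describe the letters only.

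Markers of cell types in the cultures also differed between replicate numbers. None of the 13 marker lists held a gene at 0 counts in all cultures, so neuronal, glial, fibroblast, endothelial, mural and macrophage transcripts were all present, and in bulk RNA fewer cells of a type and less RNA per cell cannot be told apart. The 9 pan-neuronal markers, led per kilobase by Uchl1, a neuronal deubiquitinase, summed to 5929, 5083 and 5770 CPM with vehicle and 6139, 5560 and 6410 CPM with HC-HA/PTX3. The 10 satellite glia markers, led by Apoe, summed to 2253, 1387 and 545 CPM with vehicle and to 2144, 1423 and 564 CPM with HC-HA/PTX3. Satellite glia transcripts were thus lowest in replicate 3 of both groups, and 10 of 10 differed among replicate numbers at an adjusted p under 0.05 in edgeR.

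A low replicate 2 recurred in some neuronal marker lists. The fitted level was lowest in replicate 2 for Asic1, Asic2 and Asic3 and, by a margin under 0.01 in log2, for Piezo2, whose vehicle CPM was lowest in replicate 3. It was also lowest there for 7 of 9 pan-neuronal and 5 of 8 tested non-peptidergic nociceptor markers, against 5504 (30.1%) of all tested genes. Of 7 peptidergic nociceptor markers 2 were lowest there, with a median log2 difference of −0.05 for replicate 2 over 1. Of 10 proprioceptor and A-beta mechanoreceptor markers, led per kilobase by Spp1, 9 differed among replicate numbers and 8 had their lowest fitted level in replicate 2. The median log2 difference of these markers was −0.72 for replicate 2 over 1 and −0.37 for replicate 3 over 1, beside 0.00 and −0.01 over all tested genes. Their summed level was 3071, 2641 and 2509 CPM with vehicle and 2934, 2656 and 2672 CPM with HC-HA/PTX3. It was highest in replicate 1 of both groups and, with vehicle, lowest in replicate 3. Abundant genes weigh most in such a sum, so it does not speak for the single genes. Spp1 was highest in replicate 2, at 762, 1015 and 687 CPM with vehicle and 817, 1025 and 609 CPM with HC-HA/PTX3. Nefh, also abundant, was lowest in replicate 2 of both groups. Of 5 A-delta low-threshold mechanoreceptor markers, led by Fxyd7, 4 differed among replicate numbers, and their summed level was 239, 171 and 149.8 CPM with vehicle and 250.0, 157 and 162 CPM with HC-HA/PTX3. Of 6 C low-threshold mechanoreceptor markers, led by Fam19a4, 5 differed, and their summed level was 134, 111 and 152 CPM with vehicle and 154, 117 and 174 CPM with HC-HA/PTX3, lowest in replicate 2 of both groups. Whether the mix of neuron types accounts for the members' differences among replicate numbers was not tested.

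**Figure D4:**
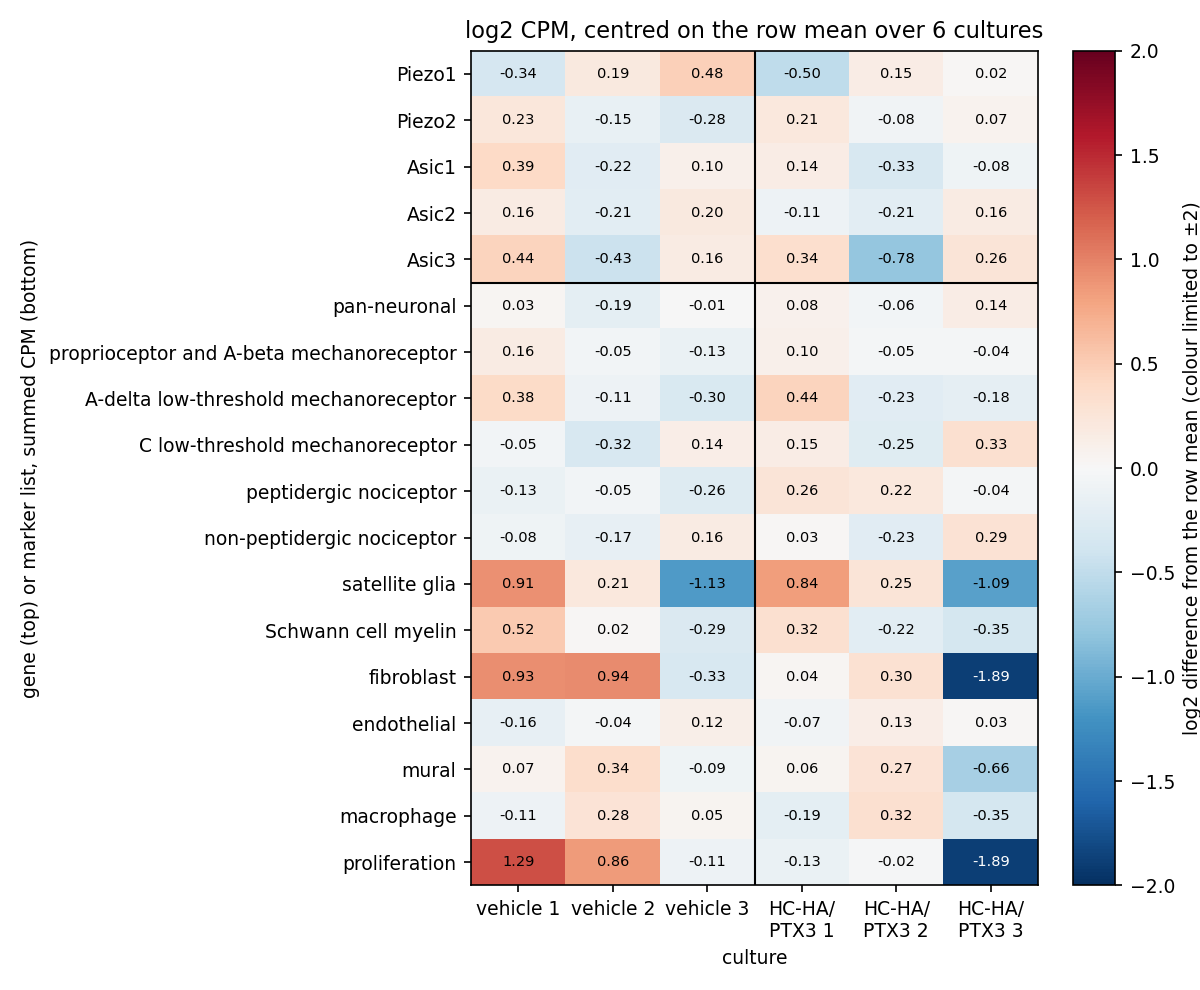
Log2 CPM of the 5 tested genes (top) and log2 summed CPM of 13 marker lists (bottom) in the 6 cultures, each centred on its row mean; red is above and blue below the mean. Asic3 falls to −0.43 and −0.78 in the replicate 2 cultures, and satellite glia markers to −1.13 and −1.09 in the replicate 3 cultures.

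With HC-HA/PTX3, 23 genes of the marker lists were called, 4 higher and 19 lower (edgeR, adjusted p under 0.05 with Benjamini-Hochberg, log2 fold change over 0.5 in size). Over all tested genes 8.70% were called, 3.32% higher and 5.38% lower. All 8 proliferation markers, led per kilobase by Pcna, were lower, from −1.72 for Mki67 to −0.54 for Pcna, and the list summed to 760, 563 and 288 CPM with vehicle and 283, 306 and 84.0 CPM with HC-HA/PTX3. Of 9 fibroblast markers, led by Col3a1 over the 6 cultures, 4 were lower (Col1a1 at −1.62, Col1a2 at −1.11, Col3a1 at −0.96 and Fbln1 at −0.87, log2 fold changes), and the list summed to 2149, 2161 and 898 CPM with vehicle and 1159, 1389 and 305 CPM with HC-HA/PTX3. None of the 9 pan-neuronal markers was called, with a median log2 fold change of 0.09 for the list and −0.01 for all genes. None of the proprioceptor, A-delta or C mechanoreceptor markers was called. The called neuronal genes were nociceptor markers, with Calcb (0.67), Mrgprd (0.62), Nppb (0.89) and, with the largest value, Tac1 higher and Mrgpra3 (−0.56) lower. The 7 peptidergic markers, led by Calca, summed to 1374, 1458 and 1257 CPM with vehicle and 1809, 1751 and 1466 CPM with HC-HA/PTX3, groups that did not overlap. The 9 non-peptidergic markers, led by P2rx3, summed to 627, 590.3 and 742 CPM with vehicle and 678, 568 and 810.2 CPM with HC-HA/PTX3, groups that overlapped.

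The remaining non-neuronal lists had few calls. Among satellite glia markers Gfap (−0.72) was lower. The 8 Schwann cell myelin markers, led by Pmp22, summed to 1005, 711 and 571 CPM with vehicle and 872, 602 and 549.8 CPM with HC-HA/PTX3. Acta2 (−1.03) was lower among 7 mural markers, which were led by Rgs5 over the 6 cultures and by Acta2 with vehicle alone, Ly6c1 (−0.67) among 9 endothelial markers, led by Cdh5, and C1qa (−0.74) and C1qb (−0.82) among 9 macrophage markers, led by Lyz2 (log2 fold changes). Summed levels in vehicle and HC-HA/PTX3 cultures were 453 to 612 and 305 to 583 CPM for mural, 286 to 347 and 304 to 351 CPM for endothelial, and 86.0 to 112 and 72.5 to 116 CPM for macrophage markers. Some calls were lost when a replicate number was left out, which leaves 4 cultures. Without replicate 1 or 2 the log2 fold changes of Gfap (−0.77 and −0.73), Fbln1 (−0.96 and −1.07) and Ly6c1 (−0.74 and −0.70) were no smaller in size than in the full fit, and the adjusted p passed 0.05. The same held without replicate 1 for C1qa (−0.75) and C1qb (−0.92). Fold changes were smaller without replicate 3, at −0.41 for C1qa, −0.48 for C1qb, −0.57 for Ly6c1 and −0.49 for Pcna, which lost their calls, and at −0.58 for Acta2, −0.74 for Col1a2 and −0.61 for Col3a1, which kept them. Without replicate 1 Mrgpra3 (−0.40) and Nppb (0.70) were smaller and lost their calls, and Mrgpra3 also lost its call without replicate 2. The part of these cell types in the members' values was not tested.

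The 49 genes related to the Piezo and ASIC channels by partnership or function gave no call in edgeR. Of these, 42 were tested, 0 were called, 13 had an unadjusted p under 0.05, and 7 (16.7%) had an adjusted p under 0.05, 5 lower and 2 higher, near the 19.2% of all tested genes. DESeq2 and limma-voom called 0 of them, with 11 and 14 at an unadjusted p under 0.05. Their median log2 fold change was −0.03, beside −0.01 for all genes. The list of Piezo partners and modulators was led per kilobase by Anxa6, an annexin that binds membranes, at 403, 375 and 301 CPM with vehicle and 453, 394 and 331 CPM with HC-HA/PTX3. Its genes with an adjusted p under 0.05 were Mdfic (log2 fold change −0.46), which encodes an auxiliary subunit of Piezo channels, Tmem150c (−0.22), which encodes a modulator of mechanosensitive currents, and Cdh1 (0.49), which encodes E-cadherin, and these 3 were picked after their values were seen. Mdfic was at 33.8, 36.7 and 16.6 CPM with vehicle and at 24.1, 27.3 and 11.9 CPM with HC-HA/PTX3, lowest in replicate 3 of both groups. Cdh1 was at 118, 78.7 and 114 CPM with vehicle and at 154, 120.5 and 159.9 CPM with HC-HA/PTX3, and its groups did not overlap.

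Other mechanically gated channels were led per kilobase by Lrrc8a, a subunit of the volume-regulated anion channel, at 171, 159 and 196 CPM with vehicle and 184, 187 and 229 CPM with HC-HA/PTX3. Of this list of 16 genes, 14 were tested and 2 had an adjusted p under 0.05 in edgeR, Tmem63c (0.28) higher and Kcnk10 (−0.43) lower, both named after their values were seen. Of 10 ASIC partners and modulators, led by S100a10, 9 were tested, and 2 of these had an adjusted p under 0.05, Stoml2 (−0.31) and Prkca (−0.27), again named after their values were seen. Stoml3, which encodes a stomatin-like protein known to tune both Piezo and ASIC currents, was at 0 to 0.127 CPM and was not tested. Of 4 other genes of the degenerin and epithelial sodium channel family, Asic5 had 0 counts in all 6 cultures and only Scnn1a, the most abundant, was tested. Among 10 other proton sensors, led by Trpv1 at 115, 119.7 and 99.9 CPM with vehicle and 118, 127 and 86.4 CPM with HC-HA/PTX3, 9 were tested and 0 had an adjusted p under 0.05.

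Profiles over the 6 cultures were compared with those of 13575 genes by the root-mean-square difference of centred log2 CPM. Asic2 had the closest match, Gpr173, an orphan receptor, at 0.023, followed by Elavl2 at 0.0384 and Ttll1 at 0.0395. For Piezo2 the nearest were Sass6 (0.029), Fam102b (0.0347) and Mblac2 (0.0347), and for Asic1 Eif1b (0.0506), St8sia3 (0.0551) and Fgf13 (0.0577), each in root-mean-square log2 difference. Piezo1 was nearest to Srpx2 (0.0527), Phgdh (0.0536) and Noc2l (0.0539), and Asic3 to D430041D05Rik (0.0637), Tmem163 (0.077) and Cntnap5b (0.0824). Between members the smallest difference was that of Asic1 and Asic2, at 0.183, and the largest that of Piezo1 and Asic3, at 0.673. Such differences also depend on how much each gene varied. The root mean square of a member's own centred profile was 0.178 for Asic2, 0.186 for Piezo2, 0.241 for Asic1, 0.331 for Piezo1 and 0.445 for Asic3. The difference of Asic1 and Asic2 was thus about as large as the whole variation of Asic2, and not a close likeness. These values describe 6 cultures and carry no test.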

How the data were processed

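Total RNA was depleted of ribosomal RNA and sequenced as read pairs from 3 vehicle and 3 HC-HA/PTX3 cultures. The authors aligned reads to mm10 and made raw counts per gene symbol with featureCounts. The methods name HISAT2, but RNA STAR stands in the column titles of the deposited counts. Aligner versions and the strand setting are not given in the sources used here. The members and lists were chosen with earlier results of these data known.

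Counts were filtered with filterByExpr, which left 18277 of 35976 genes, scaled by TMM and tested in edgeR 4.0.16 (R 4.3.3) by quasi-likelihood with replicate number and treatment as terms, after the study's batch and condition design. Replicate numbers stood in for batches, which the labels do not list. Deviations from group means correlated across genes at 0.631, 0.536 and 0.774 between cultures with the same replicate number, and between −0.613 and 0.148 otherwise, so the numbers were taken as pairs. Genes are not independent replicates. No cultures of a group matched within sampling noise (chi-square per degree of freedom 23.4 to 79.9). SEs are the log2 fold change over the root of F. The prior count for log2 CPM was 2. Fits were tested on simulated data.

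Exon lengths came from GENCODE M21 (mm10) as the longest protein-coding transcript, a definition settled after CPM had been seen. Promoters were RefSeq GRCm38.p6 sequences. Ratios were compared by exact permutation without regard to replicate number. Named genes were the 6 members, called or most abundant genes of each list (per kilobase), and the 3 nearest profiles per member among genes whose mean log2 CPM reached 1. Alternatives were no block, other filters (1 count in any or 10 in every culture), other scalings, DESeq2 1.42.0, limma-voom 3.58.1, ComBat-seq (sva 3.50.0) with limma-trend, no fold change threshold, other gene lengths and leaving out each replicate number.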

Additional observations from a re-analysis of the deposited data

How the results depend on the processing

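None of the 5 tested members was called under any of the alternatives run, and each kept the sign of its log2 fold change in every refit. An adjusted p under 0.05, with a fold change under the threshold, appeared for Piezo1 with a filter of 1 count in any culture (0.0185) and with pan-neuronal counts as library size (0.0235), and for Asic1 with the latter (0.0401) and with ComBat-seq (0.0197). Over the 12 refits the adjusted p ran from 0.0185 to 0.784 for Piezo1, 0.0954 to 0.851 for Piezo2, 0.0197 to 0.777 for Asic1, 0.0517 to 0.926 for Asic2 and 0.133 to 0.985 for Asic3. Pan-neuronal library sizes moved the median of all genes to −0.12 and the higher share of calls from 38.2% to 19.7%. The members' fitted log2 fold changes were then −0.33 (Piezo1), 0.02 (Piezo2), −0.29 (Asic1), −0.21 (Asic2) and −0.22 (Asic3). Relative to that median the members stood at −0.21, 0.14, −0.17, −0.09 and −0.11 in the same order. This repeats the main fit relative to its own median, since the scaling moves all genes alike, and shows no stability.

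Calls over all genes numbered 0 with no replicate block, 3505 with no fold change threshold and 878 to 1571 without one replicate number, and those of marker lists 0 with no replicate block and 36 with no threshold. The fit without the block called no gene at all, so its lack of calls among the members shows no stability. Among the called marker genes, Mrgpra3 kept the call in 5 of 12 refits. Related genes called were 2 with the 1-count filter (Otop1 and Kcnk18), 1 with upper-quartile scaling or raw library sizes (Cdh1), 3 with pan-neuronal library sizes (Mdfic, Kcnk10 and Kcnk18), 3 with ComBat-seq (Cdh1, Otop1 and Kcnk18), 0 to 1 without one replicate number (Cdh1) and 7 with no threshold. The cause was not tested.

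The largest log2 difference among replicate numbers ran without one number from 0.10 to 0.67 for Piezo1, 0.02 to 0.33 for Piezo2, 0.26 to 0.53 for Asic1, 0.15 to 0.41 for Asic2 and 0.18 to 0.98 for Asic3, with 1 to 4 members and 2271 to 5180 genes differing. It was 0.31 and 0.26 for Piezo2 with upper-quartile scaling and raw library sizes, and 0.19 for Asic2 with pan-neuronal library sizes. These refits had fewer cultures or another scale. The difference of the Asic3 to Asic1 ratio ran from −0.05 to 0.22 without one number, and its vehicle mean was 0.37 from raw counts, against 1.52 per kilobase.

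Coding length gave 71.4, 50.1 and 14.9 CPM per kilobase over the 6 cultures for Piezo2, Asic2 and Asic1. The union of all exons, chosen after seeing the data, gave 35.3, 19.8 and 4.36. Also chosen after seeing the data, a Piezo1 length without bases shared with Ctu2 gave 14.5, and leaving out a replicate number moved no level of a tested member by more than the SD of either group. The 3 cultures a group and counts of at least 721 for the tested members limit the precision, and Asic4 had too few for a test.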
